A study of Caenorhabditis elegans with 6 samples.

Results

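The haem-responsive genes of the nematode Caenorhabditis elegans, named hrg, were described in animals exposed to C-SPIONs, superparamagnetic iron oxide nanoparticles with a citrate coat, and in unexposed animals. The members were hrg-1 to hrg-7, taken by gene symbol from the deposited array table, with 1 transcript cluster, the set of probes for one locus, to a gene; among several clusters of a gene the one with the highest mean over the 6 arrays would be chosen by that mean. The genes themselves were proposed with earlier C-SPION and control values of these arrays in view. Of these 7 genes, 6 had a cluster annotated with their symbol, each only 1, and the array table holds 25478 genes named in this way. No cluster carried the symbol of hrg-2, which encodes a haem-binding membrane protein of the hypodermis, so it was not analysed here. The clusters of the other 6 genes were all tested, since no filter on low values was used.

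The study compared 3 arrays of C-SPION animals with 3 arrays of control animals. All were wild-type N2 hermaphrodites, grown from synchronised L1 larvae for 48 h on plates with Escherichia coli OP50 to the L4 stage, the last larval stage. They then spent 24 h at 20 °C in 50% M9, a salt buffer, which held 500 µg/mL of C-SPIONs for the exposed animals and no particles for the controls. Total RNA of whole animals was measured on 1-colour Affymetrix arrays, and the sources do not say whether the replicates are separate cultures, so the spread behind each p-value may be technical.

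C. elegans cannot make haem, the iron-containing ring of globins, catalases and cytochromes, and takes it up from its bacterial food through the intestine. The name hrg stands for haem-responsive gene, and the response of each transcript to haem was not measured here. HRG-4 is a haem transporter at the apical membrane of intestinal cells, and HRG-1 is a related transporter on acidic compartments inside them. HRG-5 and HRG-6 are paralogues of these 2 transporters. HRG-3 is a small haem-binding protein that the intestine secretes and that carries maternal haem to oocytes and embryos. HRG-7 resembles aspartic proteases, is secreted by the intestine and signals haem status to neurons, and in the reverse direction the neurons act through the BMP ligand DBL-1.

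The values were log2 signals made with RMA, a method that subtracts background, puts the arrays on a common distribution and combines the probes of a cluster. Signals of different probes are not on one scale, so levels of the genes were not ranked against each other. Array medians over the 26192 tested clusters were 5.16, 4.91 and 5.04 for C-SPION 1 to 3, against 5.19, 5.07 and 5.12 for controls 1 to 3. C-SPION 1 stood apart from its group: over all tested clusters it correlated with control 1 at 0.959, and with C-SPION 2 and C-SPION 3 at 0.935 and 0.949. Clusters are not independent replicates. With the limma test and Benjamini-Hochberg adjustment, 0 of 26192 clusters had an adjusted p under 0.05, the smallest adjusted p was 0.201, and 3280 clusters had an unadjusted p under 0.05.

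The transcripts of hrg-6, hrg-3 and hrg-4 were lower in all 3 C-SPION arrays than in any control array, and those of hrg-1, hrg-5 and hrg-7 overlapped between the groups. Of the 6 genes, 5 had a lower mean with C-SPIONs, where 46.7% of all tested clusters did. The groups lay apart in the lower direction for 3 of the 6, against 9.24% of all tested clusters. The same 3 genes had an unadjusted limma p under 0.05 in the lower direction, against 7.3% of all tested clusters, and none of the 6 passed after adjustment over all clusters (0% of all tested clusters did). The unadjusted p stayed under 0.05 in every alternative run for hrg-3 and hrg-6. For hrg-4 it was 0.0284, but 0.0501 with a replicate block, 0.0836 after median centring, 0.0725 with a trended and robust variance, and between 0.0540 and 0.0952 without any 1 array other than C-SPION 1. For hrg-7 it was 0.0988, but 0.00502 without control 3 and 0.0288 with array weights. The median difference of the 6 genes was -0.66 on the log2 scale, against 0.03 for all genes. For the marker lists described below it was -0.79 (neuron), -0.61 (muscle), -0.49 (intestine), 0.26 (hypodermis) and 0.76 (germ line). A two-sided exact permutation test over the 6 arrays gave p = 0.1 for hrg-6, hrg-3 and hrg-4, the smallest that 3 against 3 arrays allow, 0.3 for hrg-1 and hrg-7 and 0.7 for hrg-5. These genes were picked with earlier results of the same arrays known, so the counts describe them and are no independent evidence of a direction.

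**Figure D1:**
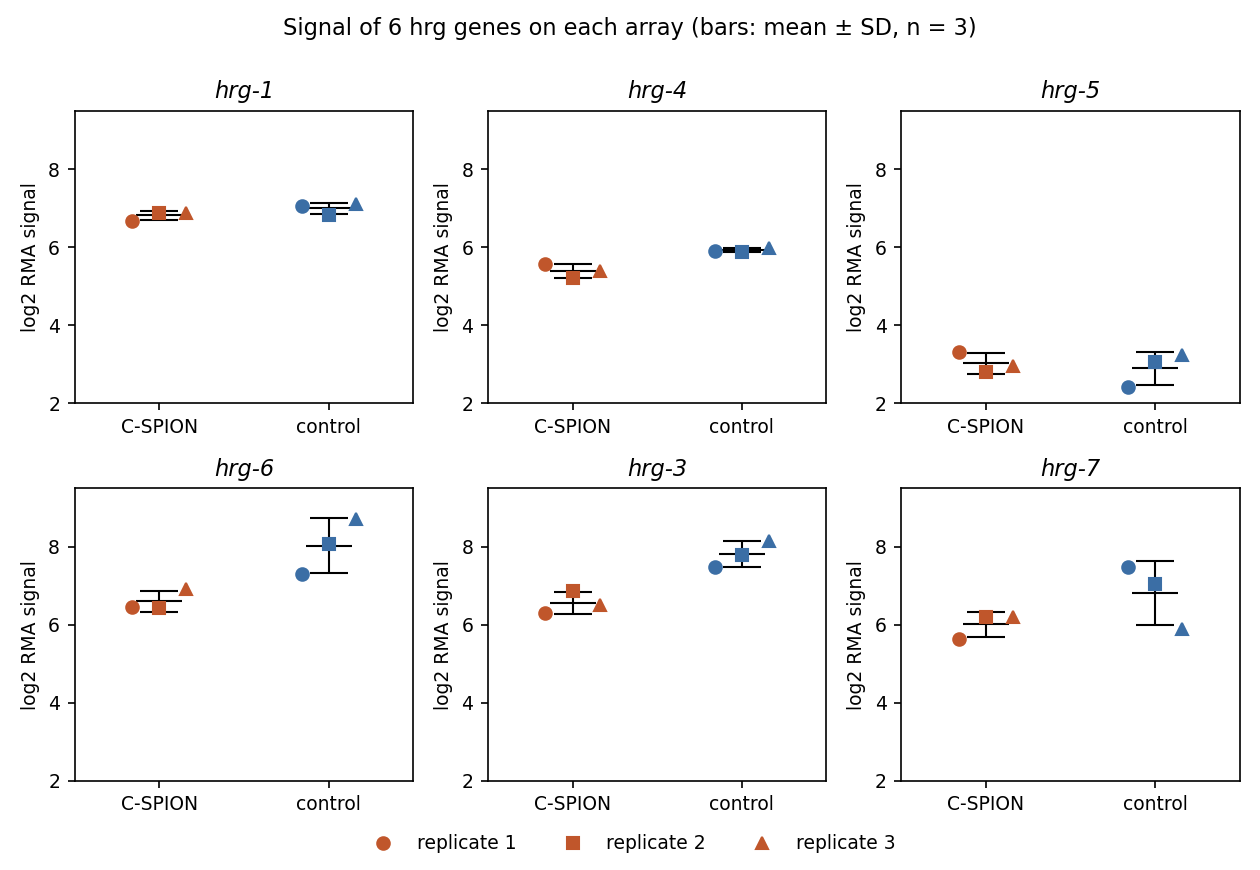
Log2 RMA signal (vertical axis) of the 6 measured hrg genes on each array, C-SPION left and control right in each panel; symbols mark the replicate number and bars the mean ± SD of 3 arrays. The C-SPION points of hrg-6, hrg-3 and hrg-4 lie below all control points, those of hrg-1, hrg-5 and hrg-7 overlap with them, and the controls of hrg-6 and hrg-7 spread most, with SD 0.71 and 0.82.

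Among the transporters, hrg-4, the apical importer, had log2 signals of 5.58, 5.22 and 5.40 in C-SPION 1 to 3, against 5.92, 5.88 and 5.98 in controls 1 to 3. The control arrays lay close together and the C-SPION arrays were all below them, with a gap of 0.30 between the nearest arrays. The difference was -0.53 (95% confidence interval -0.98 to -0.07, adjusted p = 0.356 by limma), or 0.694 times the control signal. The mean was 5.40 ± 0.18 with C-SPIONs and 5.93 ± 0.05 in controls (SD, n = 3 each). Of all tested clusters, 12.5% had a more negative difference. Without 1 array at a time the difference ran between -0.62 and -0.44.

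The intracellular transporter gene hrg-1 had signals of 6.69, 6.89 and 6.87 with C-SPIONs, against 7.06, 6.83 and 7.11 in controls. C-SPION 1 was the lowest of the 6 arrays, and control 2 lay below both other C-SPION arrays, so the groups overlapped. The difference was -0.18, with an interval that included 0 (95% confidence interval -0.64 to 0.27, adjusted p = 0.723 by limma), and 30.2% of all tested clusters had a more negative difference. The difference of hrg-1 was -0.12 without C-SPION 1.

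For the paralogue hrg-6 the signals were 6.46, 6.43 and 6.92 with C-SPIONs, against 7.30, 8.06 and 8.72 in controls. All C-SPION arrays were lower than every control, by a gap of 0.38 between C-SPION 3 and control 1, and control 3 was the highest array. The mean was 6.60 ± 0.27 with C-SPIONs and 8.03 ± 0.71 in controls (SD, n = 3 each). This was the largest difference among the 6 genes, -1.42 (95% confidence interval -2.30 to -0.54, adjusted p = 0.295 by limma), or 0.373 times the control signal. Only 1.21% of all tested clusters had a more negative difference. Without control 3 it was -1.08, and without control 1 it was -1.79.

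The other paralogue, hrg-5, had signals of 3.33, 2.80 and 2.97 with C-SPIONs, against 2.42, 3.06 and 3.23 in controls. The groups overlapped, from 2.80 to 3.33 with C-SPIONs and from 2.42 to 3.23 in controls. The highest and the lowest array were C-SPION 1 and control 1. The difference was 0.13 (95% confidence interval -0.53 to 0.79, adjusted p = 0.876 by limma), turning to -0.018 without C-SPION 1 and to -0.11 without control 1. Its mean signal was below the median of all tested clusters, the only one of the 6 genes for which this was so. Detection calls were not used here, so the signal of hrg-5 over background is unknown.

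The genes hrg-5, hrg-4 and hrg-6 stand next to each other in the RefSeq gene order of assembly WBcel235, with the noncoding RNA gene F36H1.15 between hrg-4 and hrg-6. Of the measured genes around them, F36H1.15, with mean signals of 2.96 with C-SPIONs and 3.32 in controls and an unknown signal over background, was at -0.36 (95% interval -1.04 to 0.33), with overlapping groups, and between -0.50 and -0.11 without 1 array at a time. On the far side of hrg-6, fkb-1, which encodes an FK506-binding protein, was at -0.06 (95% interval -0.50 to 0.37), or 0.027 after median centring. Beyond it, kdin-1 was at 0.05 (95% interval -0.41 to 0.51), or -0.050 without control 3.

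Of the secreted factors, hrg-3, the maternal haem carrier, had signals of 6.30, 6.88 and 6.51 with C-SPIONs, against 7.49, 7.78 and 8.15 in controls. The groups lay apart by 0.61, the widest gap of the 6 genes, and C-SPION 1 was the lowest array. The mean was 6.56 ± 0.29 with C-SPIONs and 7.81 ± 0.33 in controls (SD, n = 3 each). The difference was -1.24 (95% confidence interval -1.85 to -0.63, adjusted p = 0.262 by limma), or 0.422 times the control signal. More negative differences were found in 1.88% of all tested clusters and a smaller p in 0.68%. Without 1 array at a time it ran between -1.40 and -1.07.

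The protease-like gene hrg-7 had signals of 5.63, 6.20 and 6.21 with C-SPIONs, against 7.48, 7.05 and 5.90 in controls. Controls 1 and 2 were above every C-SPION array, whereas control 3 was below C-SPION 2 and C-SPION 3. The mean was 6.01 ± 0.33 with C-SPIONs and 6.81 ± 0.82 in controls (SD, n = 3 each), a difference of -0.80 (95% confidence interval -1.79 to 0.19, adjusted p = 0.473 by limma). This value rested on single controls: it was -1.25 without control 3 and -0.46 without control 1.

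**Figure D2:**
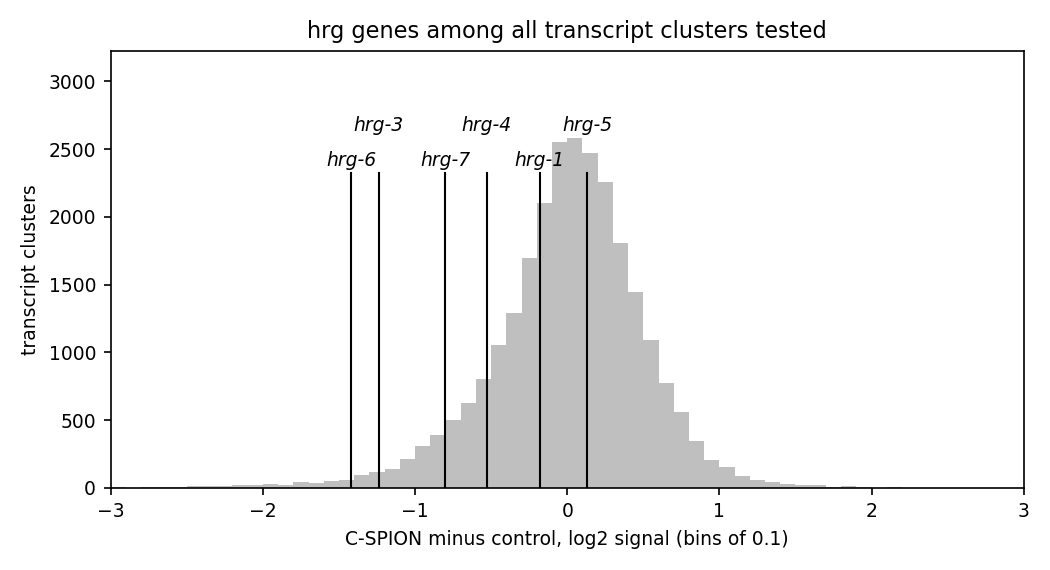
Number of transcript clusters (vertical axis) by C-SPION minus control difference in log2 signal (horizontal axis, bins of 0.1, shown between -3 and 3), over 26192 tested clusters; vertical lines mark the 6 hrg genes. The lines of hrg-6 at -1.42 and hrg-3 at -1.24 stand in the lower tail, and those of hrg-1 at -0.18 and hrg-5 at 0.13 near the centre.

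The members did not share one profile over the arrays. Over the 6 arrays hrg-3 and hrg-6 correlated at 0.92, hrg-4 and hrg-6 at 0.82, and hrg-3 and hrg-4 at 0.78, whereas hrg-7 correlated with hrg-3 at 0.42 and with hrg-6 at 0.21. These points share their arrays and the split into 2 groups, so the values are descriptions. Control 3 was the highest control for hrg-1, hrg-3, hrg-4, hrg-5 and hrg-6, and the lowest control for hrg-7.

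The genes whose profile was most like that of hrg-3 over the 6 arrays, among 9512 genes with a mean log2 signal of at least 6, were cpr-3, dhs-14 and nekl-2, with Pearson correlations of 0.9976, 0.9975 and 0.9961. They encode a cathepsin B-like protease, a short-chain dehydrogenase and a NIMA-related kinase, and were at -0.98, -1.15 and -0.86. Those most like hrg-6 were F58H10.1, mlc-3, a myosin light chain gene, and oig-2, a gene of the immunoglobulin domain class, with correlations of 0.9980, 0.9976 and 0.9908 and differences of -0.42, -0.24 and -0.99. These genes were picked as the highest correlations of all those searched, and 4.57% of the 9512 genes had a correlation above 0.9 with hrg-3, and 3% with hrg-6.

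Outside hrg-1 to hrg-7, the genes of haem transport and handling examined were mrp-5, hrg-9, hrg-10, abtm-1 and fecl-1. Of these 5 genes 3 were higher and 2 lower, 0 passed after adjustment, and the median difference was 0.13, turning to -0.05 without C-SPION 2 and to -0.03 without control 3. The gene mrp-5, which encodes the exporter that passes haem out of intestinal cells, had signals of 6.72, 6.89 and 6.65 with C-SPIONs and 6.72, 6.90 and 7.01 in controls, a difference of -0.12 (95% confidence interval -0.58 to 0.33, adjusted p = 0.82 by limma), or -0.033 after median centring. Of the TANGO2-family haem trafficking genes, hrg-9 had 5.78, 5.50 and 5.33 with C-SPIONs, against 5.93, 6.14 and 6.45 in controls. Its groups lay apart, with a difference of -0.64 (95% confidence interval -1.18 to -0.09, adjusted p = 0.352 by limma). The second gene of this family, hrg-10, had 7.97, 8.05 and 8.10 with C-SPIONs, against 7.92, 7.94 and 7.84 in controls, a difference of 0.14 (95% confidence interval -0.28 to 0.56, adjusted p = 0.773 by limma). The groups of hrg-10 also lay apart, in the higher direction, by only 0.03. Of the 5 genes, 1 had groups apart in the lower direction and 1 in the higher, against 9.24% and 9.4% of all tested clusters. The mitochondrial ABC transporter gene abtm-1 was at 0.19 and the ferrochelatase-like gene fecl-1 at 0.13, both with overlapping groups. Their signs turned without 1 array, to -0.055 for abtm-1 without C-SPION 2 and to -0.033 for fecl-1 without control 3.

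Genes of the DBL-1 pathway, the counterpart of HRG-7 in signalling between neurons and intestine, were lower in 6 of 9 cases (5 after median centring), with a median difference of -0.29. That median was -0.07 without control 2 and -0.50 without control 3. The ligand gene dbl-1 had 5.74, 5.59 and 5.44 with C-SPIONs, against 6.14, 6.33 and 6.23 in controls. All C-SPION arrays were below all controls, with a difference of -0.64 (95% confidence interval -1.09 to -0.19, adjusted p = 0.307 by limma). The Smad gene sma-4 was at -0.73 (95% confidence interval -1.21 to -0.25, adjusted p = 0.301 by limma), also with groups apart. The Smad gene sma-2 was at -0.42 and sma-9, a transcription cofactor gene of the pathway, at -0.29, both with overlapping groups. Without control 2 they were at -0.23 and -0.15. Of the 9 genes, 2 had an unadjusted p under 0.05, both lower (7.3% of all tested clusters were), and 0 passed after adjustment. The same 2 had groups apart in the lower direction, against 9.24% of all tested clusters. A lower mean, found for 6 of the 9, was found for 46.7% of all tested clusters.

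Aspartyl protease genes, which carry the symbol asp and resemble hrg-7 in the class of protein they encode, were higher in 9 and lower in 8 of 17 cases (12 and 5 after median centring), with a median difference of 0.06. Without control 1 they were higher in 7 and lower in 10, with a median of -0.03. In the higher direction 3 had an unadjusted p under 0.05, against 5.22% of all tested clusters, and 4 had groups apart, against 9.4%. Those with the smallest p were higher: asp-17 at 1.29 (95% confidence interval 0.61 to 1.97, adjusted p = 0.264 by limma), asp-13 at 0.66 and asp-18 at 0.72, each with groups apart. The gap of asp-18 was only 0.01, at mean signals of 3.43 with C-SPIONs and 2.70 in controls. For asp-17 the means were 5.06 and 3.77. The signals of asp-17 and asp-18 over background are unknown. The groups of asp-7 overlapped at 0.34, or 0.17 without C-SPION 3 and 0.60 without C-SPION 2. None of the 17 passed.

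Of 18 genes for haem-containing enzymes and globins, 10 were higher and 8 lower, the median difference was 0.04 (-0.04 without C-SPION 2 and -0.05 without control 3), and 0 passed. The tryptophan dioxygenase gene tdo-2 had 6.37, 6.06 and 6.19 with C-SPIONs, against 7.23, 7.56 and 6.96 in controls, a difference of -1.04 (95% confidence interval -1.58 to -0.51, adjusted p = 0.262 by limma). The globin gene glb-1 had 9.36, 9.29 and 9.12 with C-SPIONs, against 10.06, 9.81 and 10.39 in controls, a difference of -0.83 (95% confidence interval -1.35 to -0.31, adjusted p = 0.295 by limma). The cytochrome c gene cyc-2.2 was the opposite case, with 5.85, 7.70 and 6.71 with C-SPIONs, against 5.01, 5.73 and 5.65 in controls. All 3 genes had groups apart, and cyc-2.2 was at 1.29 (95% confidence interval 0.18 to 2.40, adjusted p = 0.356 by limma), or 0.82 without C-SPION 2. The soluble guanylyl cyclase gene gcy-35 was at -0.51 (95% interval -1.01 to -0.01), also with groups apart. The genes named here are those of the list with the smallest unadjusted p. Of the 18 genes, 3 had groups apart in the lower direction and 1 in the higher, against 9.24% and 9.4% of all tested clusters. An unadjusted limma p under 0.05 was found for 3 lower and 1 higher, against 7.3% and 5.22% of all tested clusters.

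Of 10 iron storage and transport genes 6 were higher and 4 lower (8 and 2 after median centring), with a median difference of 0.08, a largest of 0.44, and 0 with an unadjusted p under 0.05. Without C-SPION 2, and likewise without control 1, 4 were higher and 6 lower, with a median of -0.06. The ferritin gene ftn-1 had 9.25, 9.53 and 9.51 with C-SPIONs, against 9.20, 8.60 and 9.16 in controls. Its groups lay apart by only 0.05, at a difference of 0.44 (95% confidence interval -0.11 to 1.00, adjusted p = 0.479 by limma), or 0.25 without control 2. The other ferritin gene, ftn-2, was at 0.05 and the iron transporter gene smf-3 at 0.17, with overlapping groups, and smf-3 ran from 0.06 to 0.37 without 1 array at a time. Groups lay apart in the higher direction for 2 of the 10 genes, ftn-1 and smf-2, against 9.4% of all tested clusters. The transporter gene smf-2 was at 0.36, with mean signals of 3.24 with C-SPIONs and 2.88 in controls and an unknown signal over background. Its relative smf-1, at 0.27, and the ferroportin gene fpn-1.2, at -0.34, had overlapping groups, and they were at 0.097 without C-SPION 2 and at -0.52 without control 1.

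**Figure D3:**
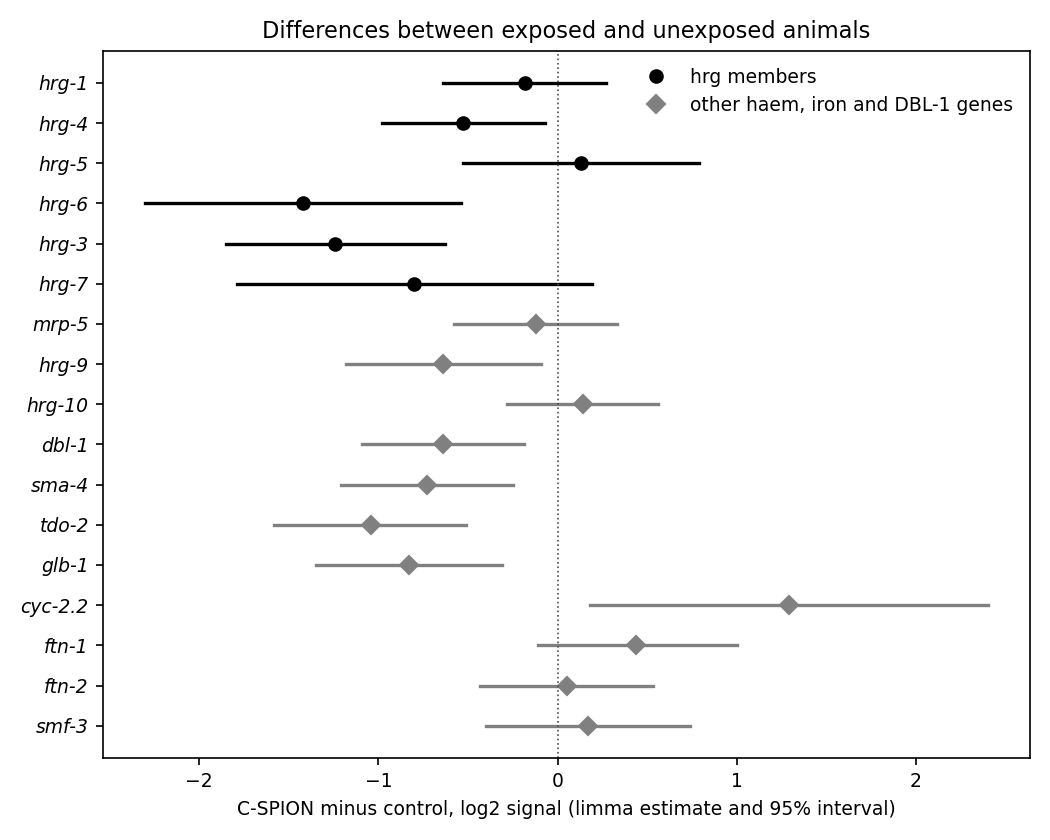
C-SPION minus control difference in log2 signal (horizontal axis) with the limma 95% interval for the 6 hrg genes (circles) and for other haem, iron and DBL-1 pathway genes (diamonds), 3 arrays a group. The intervals of hrg-6, hrg-3 and hrg-4 lie below 0 and those of hrg-1, hrg-5 and hrg-7 cross it, and after adjustment over all clusters none of the genes shown passed.

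Several hrg genes act in the intestine, so the levels of intestine markers are given beside them. In whole-animal RNA, fewer cells of a type and less RNA per cell cannot be told apart. Of 10 intestine markers 7 were lower, with a median difference of -0.49, and 2 had groups apart in the lower direction, where 9.24% of all tested clusters did. An unadjusted limma p under 0.05 was found for 4 of the 10, all lower, against 7.3% of all tested clusters in that direction. None passed after adjustment, and the median was -0.30 without C-SPION 3. Their mean level per array was between 6.84 and 7.28 with C-SPIONs and between 7.31 and 7.83 in controls. Relative to the control mean, the markers stood at -0.31, -0.46 and -0.74 in C-SPION 1 to 3 and at 0.03, 0.24 and -0.27 in controls 1 to 3. The 6 hrg genes stood at -0.75, -0.68 and -0.60 in C-SPION 1 to 3 and at -0.13, 0.03 and 0.10 in controls 1 to 3. Of the 3 markers that the naming rule picked by mean signal, ifb-2, an intermediate filament gene, was at -0.82 with groups apart. The protease gene cpr-6 was at -0.28 and the proton pump gene vha-6 at -0.11, both with overlapping groups, or -0.035 for cpr-6 without control 3 and 0.092 for vha-6 without control 2. Over the list the differences ran from -1.70 for pho-1 to 0.32 for elt-2, both with overlapping groups and named after their values were seen. The part of intestinal RNA in the hrg values was not tested.

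Gut granules are lysosome-related compartments of intestinal cells. Of 6 gut granule genes 5 were lower, against 46.7% of all tested clusters. That count was 4 after median centring or quantile normalisation and 3 without control 2. The median difference was -0.19, or -0.06 without C-SPION 1 and -0.36 without C-SPION 2. Groups lay apart in the lower direction for 2 genes, against 9.24% of all tested clusters. An unadjusted limma p under 0.05 was found for 1 gene, lower, against 7.3% in that direction, and 0 passed after adjustment. The granule gene glo-3 had 4.34, 4.36 and 4.84 with C-SPIONs, against 5.59, 5.82 and 5.92 in controls, a difference of -1.26 (95% confidence interval -1.79 to -0.73, adjusted p = 0.22 by limma). The small GTPase gene glo-1 was at -0.51 with groups apart, or -0.20 without control 3. The groups of glo-2 and of the zinc transporter gene cdf-2 overlapped. The gene glo-2 was at 0.31, or -0.16 without C-SPION 2, and cdf-2 at -0.26, or -0.067 without C-SPION 1.

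Markers of other tissues were counted in the same way, and none passed after adjustment. Neuron markers were lower in 10 of 10 genes (9 after median centring or without C-SPION 1), and stood at -0.59, -0.97 and -0.98 in C-SPION 1 to 3 relative to the mean of the controls. Of these 10, 8 had groups apart in the lower direction, where 9.24% of all tested clusters did. An unadjusted limma p under 0.05 was found for 6 of them, against 7.3% of all tested clusters in that direction. Muscle markers were lower in 9 of 10, 3 of them with groups apart, against 9.24% of all tested clusters. An unadjusted limma p under 0.05 was found for 3 muscle markers, all lower, against 7.3% of all tested clusters. Germ line markers were higher in 10 of 10, at 0.46, 0.86 and 0.83 in C-SPION 1 to 3. Their groups lay apart in the higher direction for 9 genes, against 9.4% of all tested clusters. An unadjusted limma p under 0.05 was found for 6 germ line markers, all higher, against 5.22% of all tested clusters. Hypodermis markers were higher in 6 and lower in 4 of 10 (5 and 5 without control 1). Leaving C-SPION 1 out, hrg-3 was at -1.11, hrg-6 at -1.35, hrg-4 at -0.62 and hrg-7 at -0.61. The part of tissue composition in these values was not tested.

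**Figure D4:**
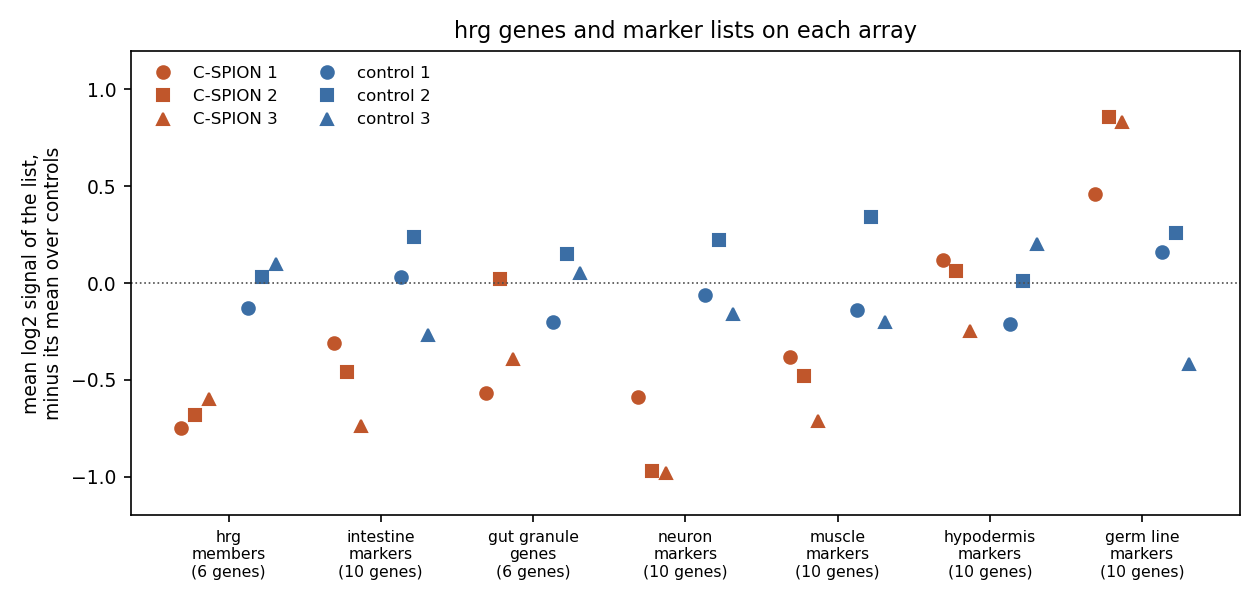
Mean log2 signal of each gene list minus its mean over the 3 controls (vertical axis), by array, with C-SPION arrays in orange to the left of control arrays in blue and a symbol for each replicate number. The hrg genes stand between -0.75 and -0.60 in the C-SPION arrays and between -0.13 and 0.10 in the control arrays.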

How the data were processed

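The deposited table holds log2 signals, which the authors made with RMA; the submitters' processing notes name Affymetrix Expression Console, without versions or settings. For the genome build of the array: not given in the sources used here. Of 29317 transcript clusters, 25546 have 1 gene symbol in the platform annotation, 646 several and 3125 none; 25495 of the first were matched by gene identifier to RefSeq (WBcel235), used for names and gene order only. The 26192 named clusters were fitted in R 4.3.3 by limma 3.58.1 with a two-sided moderated test of group and no covariate, and p-values were adjusted over all of them by Benjamini-Hochberg with a threshold of 0.05. The fit was tested on simulated data. A gene is represented by its brightest cluster.

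Samples were grouped by title, where the third control has its own number although its source name repeats that of the second. The members, the lists and the comparisons were chosen with earlier results of these data known. Named were all members, up to 4 genes of each haem, iron, signalling, granule or protease list by smallest unadjusted p, up to 3 of a marker list by mean signal, fixed haem and iron genes, the chromosomal neighbours and the 3 genes most like each of the 2 members with the smallest p. Lists were described without a test. RMA compresses small changes near background and removes changes of total RNA per animal. Only 3 arrays a group limit the precision.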

Additional observations from a re-analysis of the deposited data

How the results depend on the processing

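The 6 hrg genes were recomputed without each array, with a replicate block, after median centring or quantile normalisation, with unnamed clusters added, without dim clusters (which removed hrg-5), and with other variance and weighting options. All 77 values for these 6 genes stayed above the threshold of 0.05, with a lowest adjusted p of 0.0985 for hrg-3 with array weights, and their directions changed only for hrg-5. Without 1 array at a time hrg-5 ran from -0.11 (without control 1) to 0.29, and it was -0.018 without C-SPION 1. After median centring hrg-1 was at -0.093. The number of clusters past the threshold was 0 in the fit reported and between 0 and 63 without 1 array, the 63 (6 higher, 57 lower) being found without C-SPION 1. At an unadjusted p under 0.05 it was 3280.

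C-SPION and control samples of the same replicate number had deviations from their group means that correlated at 0.222, 0.203 and 0.008 for numbers 1 to 3. For different numbers the correlations between the groups ran from -0.266 to 0.058. C-SPION 1 and C-SPION 2 correlated best with their own number, and C-SPION 3 did not. These values do not settle whether the numbers pair the samples, and the fit reported used no pairing. With the replicate block 0 clusters passed, and hrg-3 and hrg-6 both had an adjusted p of 0.317. Among the other genes named, signs turned without 1 array for kdin-1 (-0.050 to 0.14) and ftn-2 (-0.047 to 0.14, with -0.020 without control 1), abtm-1 (-0.055 to 0.42), fecl-1 (-0.033 to 0.32), glo-2 (-0.16 to 0.55) and vha-6 (-0.39 to 0.092), and for fkb-1 (0.027) after median centring. The cause was not tested. Taking the mean over all clusters of a gene gave nothing to compute, since each hrg gene has 1.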

Other observations

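The table also names genes whose hrg symbols lie outside hrg-1 to hrg-7, and their values were looked at without a prior rule. Beside hrg-9 and hrg-10 they are hrg-11.2, hrg-11.3, hrg-11.4, hrg-13 and hrg-14. The cluster of hrg-11.3 had log2 signals of 6.69, 6.55 and 6.17 with C-SPIONs, against 7.41, 8.05 and 7.07 in controls. Its groups lay apart at a difference of -1.04 (95% confidence interval -1.75 to -0.33, adjusted p = 0.304 by limma). The cluster of hrg-11.2 had 5.96, 4.61 and 4.76 with C-SPIONs, against 6.61, 6.94 and 5.29 in controls, a difference of -1.17 (95% confidence interval -2.41 to 0.07, adjusted p = 0.419 by limma), and control 3 lay below C-SPION 1. These 2 genes had the most negative differences of the 7. The groups of hrg-11.4, hrg-13 and hrg-14 overlapped, at differences of 0.02, 0.29 and -0.03. Of the 7 genes 4 were lower and 3 higher, or 3 and 4 after median centring, and 0 passed after adjustment. The median difference was -0.03, or 0.06 after median centring. Groups lay apart for 2 in the lower direction and 1 in the higher, against 9.24% and 9.4% of all tested clusters.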
